A study of Mus musculus with 8 samples.

Results

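The genes described here are 7 components of the killing machinery of cytotoxic lymphocytes: the granzymes Gzma, Gzmb and Gzmk, the pore protein Prf1, the granule proteins Nkg7 and Ctsw, and the natural killer (NK) cell receptor chain Klrd1. They were chosen by symbol, with their FPKM values in the control and Lck-cre groups already known, so their difference between these groups is given as a description, with no test. All 7 were found among the 55359 genes listed. RNA sequencing measured thymocytes of mice aged 5 weeks in 8 samples, sorted as double positive (DP) for CD4 and CD8 and with surface TCR beta from absent to intermediate. All 8 samples carried LSL-Sting1-N153S, a coding sequence of STING with the gain-of-function change N153S behind a stop cassette that Cre removes. The 4 control samples (replicates 1 to 4), of the genotype LSL-Sting1-N153S/+, had no Cre. The 4 Lck-cre samples (replicates 5 to 8), of the genotype LSL-Sting1-N153S;Lck-cre, also had Cre driven by the promoter of Lck, a kinase gene that thymocytes switch on early. No group with Cre alone was analysed here, so effects of Cre and of the mutant STING cannot be told apart. There was 1 female (replicate 1 or 5) per group, next to 3 males. The labels do not say that the samples are from different mice, so any p-value measures the spread between samples, which may be technical.

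Cytotoxic T cells and NK cells store granzymes in granules with perforin. On contact with a target, the granules fuse with the membrane, perforin makes pores and the granzymes enter and cleave proteins of the target cell. Mature CD8 T cells, NK cells, NKT cells and some gamma delta T cells are the usual sources of these transcripts in the thymus, while immature DP thymocytes have no killing function.

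The tables used here hold no read counts, so depth is unknown, and levels are given as FPKM, a fragment count scaled by gene length and library size. Per sample, 22809 to 23443 genes lay above 0 FPKM and 12177 to 12342 reached 1 FPKM. Sting1, given first as a check of the labels, lay at 11.6 to 15.3 FPKM in the controls and at 221, 85.4, 130 and 232 FPKM in Lck-cre replicates 5 to 8 (log2 change 3.52, SE 0.25, adjusted p = 0.00213 by limma). Both genes of the DP label were abundant, Cd8a at 941 to 1237 FPKM across the 8 samples, and Cd4 at 747 ± 36.4 FPKM in the controls and 545 ± 111 FPKM in Lck-cre (SD, n = 4 each). Bulk levels do not show whether single cells carried both, so the purity of the sort was not tested. Cd4 fell (adjusted p = 0.0356 by limma), but the call held in 1 of the 8 fits with 1 sample removed, that lacking Lck-cre replicate 6 (adjusted p of 0.0609 to 0.131 in the other 7), and Cd8a did not pass (adjusted p = 0.274). The fits have a term for sex, which takes up a female left without a partner. Leaving out replicate 1 or replicate 5 therefore gives the genotype estimate of the males alone, and those fits are not separate checks.

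Of the 7 genes, 5 matched a promoter in RefSeq's GRCm38.p6 table, which gives 250 bases before to 50 bases after a start site. The following 4 are shown because their genes took 4 different courses: Gzma, abundant and higher in Lck-cre; Nkg7, scarce and higher; Prf1, lower in mean; and Gzmk, the granzyme next to Gzma on chromosome 13, listed at 0 throughout. Capitals mark matches, searched on both strands, to short motifs. The letters TGTGGT stand for the RUNX motif, and AGGTGT for the motif of T-box factors. The TATA box was searched as TATAAA. The interferon motif ISRE was searched as a pair of TTTC runs with 2 bases of any kind between them, and the STAT motif GAS as TTCNNNGAA. The AP-1 motif was searched as TGANTCA, and the cyclic AMP motif CRE as TGACGTCA. No match overlapped another, and positions open to any base are left in lower case. The windows are chr13:113100932-113101231 (minus strand), chr7:43436888-43437187 (plus), chr10:61297586-61297885 (plus) and chr13:113180916-113181215 (minus).
Gzma: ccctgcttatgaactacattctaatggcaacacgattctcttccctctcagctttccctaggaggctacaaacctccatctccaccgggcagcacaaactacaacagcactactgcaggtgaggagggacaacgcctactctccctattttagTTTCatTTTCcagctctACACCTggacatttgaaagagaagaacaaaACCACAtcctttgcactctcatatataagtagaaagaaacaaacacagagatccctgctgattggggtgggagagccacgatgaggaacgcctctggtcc
Nkg7: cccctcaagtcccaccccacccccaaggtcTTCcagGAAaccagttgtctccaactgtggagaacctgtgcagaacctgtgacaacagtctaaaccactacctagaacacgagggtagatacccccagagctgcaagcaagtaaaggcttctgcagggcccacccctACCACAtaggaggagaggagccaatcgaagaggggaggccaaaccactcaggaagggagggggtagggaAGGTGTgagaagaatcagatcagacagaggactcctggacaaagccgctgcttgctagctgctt
Prf1: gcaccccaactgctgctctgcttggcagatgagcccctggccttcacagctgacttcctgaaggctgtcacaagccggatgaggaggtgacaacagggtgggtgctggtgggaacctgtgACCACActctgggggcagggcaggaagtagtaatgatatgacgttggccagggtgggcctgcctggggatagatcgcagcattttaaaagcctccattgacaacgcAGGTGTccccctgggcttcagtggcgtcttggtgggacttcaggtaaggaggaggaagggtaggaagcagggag
Gzmk: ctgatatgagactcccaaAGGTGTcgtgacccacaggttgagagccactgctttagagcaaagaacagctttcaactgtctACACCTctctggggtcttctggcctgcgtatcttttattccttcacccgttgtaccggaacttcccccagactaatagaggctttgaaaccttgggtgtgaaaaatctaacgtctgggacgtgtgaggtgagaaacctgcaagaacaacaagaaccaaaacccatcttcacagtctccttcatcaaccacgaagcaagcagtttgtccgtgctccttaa

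The Gzma window held a RUNX match starting at position -50 from the start site, a T-box match at -80 and an ISRE match at -97. Nkg7 held a RUNX match at -83, a T-box match at -14 and a GAS match at -220, and Prf1 a RUNX match at -130 and a T-box match at -24. Gzmk held T-box matches at -232 and -169 and no RUNX match. The Gzmb window, not shown, held RUNX matches at -93 and -34, a GAS match at 38, an AP-1 match at -58 and no T-box match. Of the 32851 promoters in the table, 16.8% held the RUNX letters, 13.7% the T-box, 13.6% the TATA, 3.44% the ISRE, 8.3% the GAS, 7.81% the AP-1 and 1.79% the CRE letters. RUNX and T-box letters stood together in the promoters of Gzma, Nkg7 and Prf1, whose levels went in different directions, and not in those of Gzmk and Gzmb. The share of all promoters that held both was not counted, so nothing is read from this. A match describes letters only and does not show that a factor binds.

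Gzma, or granzyme A, a serine protease that cleaves after basic residues, had the highest level of the 7 in every sample. Control replicates 1 to 4 had 26.7, 16.3, 23.6 and 17.3 FPKM, against 79.0, 34.9, 59.3 and 88.8 FPKM in Lck-cre replicates 5 to 8. Every Lck-cre sample stood above every control, and replicate 6 stood nearest to them. The means were 21.0 ± 4.99 and 65.5 ± 23.8 FPKM (SD, n = 4 each), a 3.12-fold ratio, or 1.57 (SE 0.34) as a difference of mean log2(FPKM + 0.5). In TPM, which scales each library to the same sum, the ratio was 2.98. Mean read coverage per base lay between 108 and 181 in the controls, and between 239 and 619 in Lck-cre. Between the females the ratio was 2.96 (1 sample each), and between the means of the males it was 3.20 (n = 3 each). In the controls, 58.3% to 71.3% of the 12337 genes that passed the minimum used for testing (1 FPKM in at least 4 samples) lay below Gzma, and in Lck-cre 77.3% to 92.5% did. The files list the gene at 113230359 to 113237515 of chromosome 13 (minus strand) and name no build for these positions.

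The other granzymes were near or at the bottom of the scale. Gzmb, which cleaves after aspartate and triggers apoptosis, was listed at 0 in all 8 samples. Gzmk, a tryptase-like granzyme whose gene lies 70627 bases from Gzma, was also listed at 0 in all 8. Over the 10 granzymes in the files, 2 lay above 0 in each sample, Gzma and Gzmm. Gzmm, which is no member, lay at 0.415, 0.424, 0.554 and 0.619 FPKM in the controls and at 0.686, 0.469, 0.608 and 0.832 FPKM in Lck-cre, with overlapping groups. Gzma made up 96.5% to 99.1% of the summed granzyme FPKM in each sample. A value of 0 in tables without counts can be a failed estimate, so these genes are described only as listed at 0.

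Prf1, or perforin, which forms the pores through which granzymes enter a target, went the opposite way from Gzma. Its control values were 2.47, 1.98, 2.01 and 1.48 FPKM, and those of Lck-cre replicates 5 to 8 were 0.953, 1.49, 1.55 and 0.463 FPKM. The groups overlapped, since Lck-cre replicates 6 and 7 reached the level of control replicate 4. The means were 1.99 ± 0.404 and 1.11 ± 0.511 FPKM (SD, n = 4 each), a ratio of 0.561, and the difference of mean log2(FPKM + 0.5) was -0.67 (SE 0.28). Mean coverage per base lay between 10.5 and 17.7 in the controls, and between 2.70 and 11.2 in Lck-cre. FPKM are per length, so levels can be set against each other: Gzma stood at 8.24 to 11.7 times Prf1 in the controls, and at 82.8, 23.4, 38.2 and 192 times Prf1 in Lck-cre replicates 5 to 8. Without Lck-cre replicate 8, the lowest for Prf1, the log2 difference was -0.44.

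Nkg7, a membrane protein of cytotoxic granules that takes part in their release, was scarce but stood apart between the groups. It lay at 0, 0.0602, 0.0767 and 0.0572 FPKM in the controls and at 0.444, 0.144, 0.748 and 0.961 FPKM in Lck-cre replicates 5 to 8. All Lck-cre samples were above all controls, with replicate 6 again the lowest, and no sample reached 1 FPKM. The means were 0.0485 ± 0.0335 and 0.574 ± 0.357 FPKM (SD, n = 4 each), an 11.8-fold ratio between low levels. Mean coverage per base was at most 0.583 in the controls and 1.09 to 7.09 in Lck-cre. The difference of mean logs was 0.91 (SE 0.26) with a pseudocount of 0.5 and 2.02 with 0.1.

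Ctsw, or cathepsin W, a cysteine protease found in CD8 T and NK cells, was at a similar level in both groups. Control replicates 1 to 4 had 5.30, 3.24, 4.38 and 3.35 FPKM, against 4.70, 4.17, 4.12 and 4.59 FPKM in Lck-cre replicates 5 to 8. The Lck-cre values fell inside the range of the controls. The means were 4.07 ± 0.970 and 4.39 ± 0.292 FPKM (SD, n = 4 each), a ratio of 1.08, with a log2 difference of 0.12 (SE 0.16). Between the females the ratio was 0.886 (1 sample each), and between the means of the males it was 1.17 (n = 3 each). Gzma therefore stood at 5.04 to 5.37 times Ctsw in the controls, a narrow range, and at 8.36 to 19.4 times in Lck-cre. The files list Fibp on the opposite strand with 9 bases shared with the end of Ctsw, and no source used here says whether reads were counted by strand. Fibp lay at 29.6 ± 4.67 and 30.5 ± 1.36 FPKM (SD, n = 4 each), and its controls came in the same order as those of Ctsw (replicates 1, 3, 4, 2). The part of Fibp reads in Ctsw was not tested.

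Klrd1, or CD94, which pairs with NKG2 chains to form receptors for nonclassical MHC class I, was listed at 0 in 7 of 8 samples. The exception was Lck-cre replicate 5, at 0.0553 FPKM with a mean coverage per base of 0.304. Its partner genes Klrc1, Klrc2 and Klrc3 were listed at 0 in all 8 samples.

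**Figure D1:**
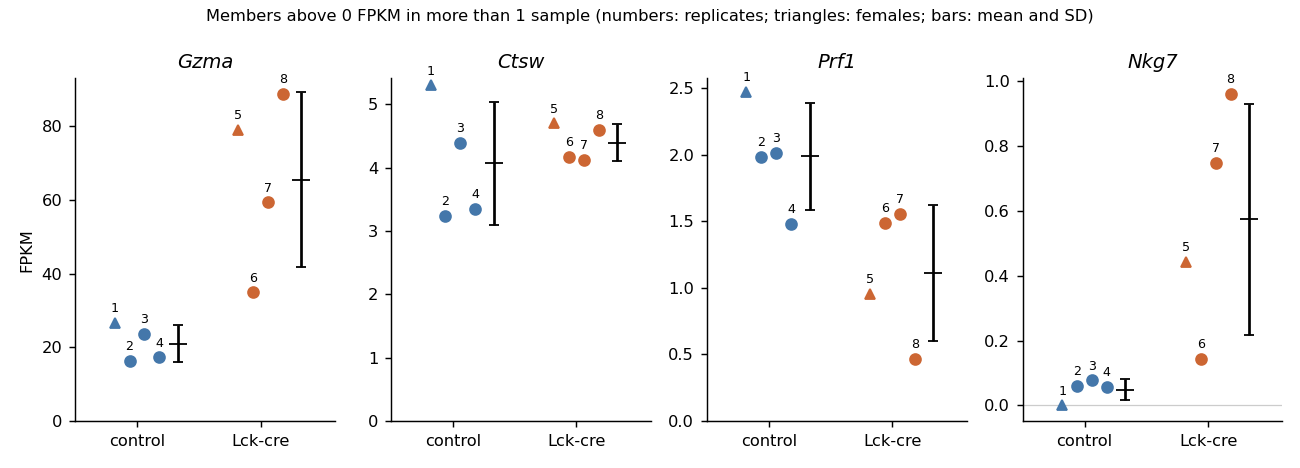
Level of 4 of the 7 genes in FPKM (y axis) in each control and Lck-cre sample, with 1 point a sample, its replicate number above it, triangles for females and bars for the mean and SD. Gzma and Nkg7 lay higher in all Lck-cre samples than in all controls, Ctsw overlapped and Prf1 had the lower mean in Lck-cre, 1.11 against 1.99 FPKM.

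Counted over the set, 2 of 7 genes (Gzma and Nkg7) lay higher in every Lck-cre sample than in every control, 0 of 7 lay lower, 3 overlapped and 2 were listed at 0 throughout. In the higher direction, 9.04% of the 28851 genes above 0 FPKM in at least 1 sample stood apart, as did 17.1% of the tested genes. Since this contrast was known when the set was chosen, nothing is read from the count. The minimum of 1 FPKM in at least 4 samples was met by 3 of 7 (Gzma, Prf1 and Ctsw).

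Within the Lck-cre group, Gzma ran in the same order over the replicates as Sting1 (8, 5, 7, 6), and within the controls both ran 1, 3, 4, 2. These orders were not particular to the pair. Trgc1, Trgc2, Trdc, Runx3 and Tyrobp also ran 8, 5, 7, 6 in Lck-cre. In the controls, Trgc1, Ctsw and Fibp also ran 1, 3, 4, 2. Nkg7 ran 8, 7, 5, 6 in Lck-cre, so the top and bottom samples matched those of Sting1 while the middle pair changed places. Prf1 ran 7, 6, 5, 8, with its lowest value in the sample that was highest for Sting1 and Gzma. With 4 samples a group these orders are a description, with no test.

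**Figure D2:**
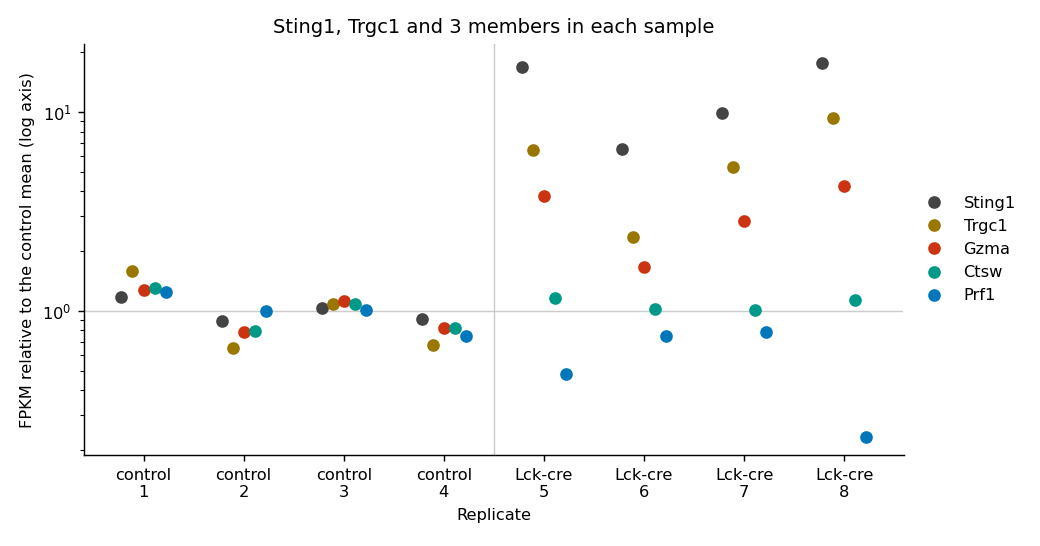
FPKM of Sting1, Trgc1, Gzma, Ctsw and Prf1 in each sample, divided by the mean of the 4 controls (y axis, log scale), with 1 point a gene and sample. Sting1, Trgc1 and Gzma were lowest in replicate 6 and highest in replicate 8 among the Lck-cre samples, while Prf1 was lowest in replicate 8.

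The next comparison asked whether other genes of cytotoxic granules and their release differed between the genotypes. This list and the 3 related lists below were chosen with earlier results of these data known. Their calls and p-values are therefore a description and no independent support. Of the 22 matched genes 12 could be tested, and limma called 1 higher and 0 lower, against 25.8% of all 12337 tested genes that passed in either direction. Of the tested genes, 15.4% (1901) rose and 10.4% (1279) fell, and with TPM 1300 rose and 2067 fell. Rab27a, the small GTPase that docks granules at the membrane, rose 1.33-fold. It had 26.3, 22.5, 25.8 and 22.4 FPKM in the controls and 34.7, 26.7, 31.6 and 36.0 FPKM in Lck-cre, so that replicate 6 exceeded the highest control only narrowly. The means were 24.3 ± 2.10 and 32.2 ± 4.15 FPKM (SD, n = 4 each; log2 change 0.40, SE 0.09, adjusted p = 0.0191 by limma). The call ended without control replicate 1 or Lck-cre replicate 5, which both leave the estimate to the males, and without control replicate 2 (adjusted p of 0.0609 to 0.0705). It also ended with no filter (0.0713). Srgn, the proteoglycan that packs granzymes, Ctsc, which activates them, and Lamp1, of the granule membrane, had log2 changes of 0.16, 0.18 and 0.14 (adjusted p of 0.337, 0.0887 and 0.199). Unc13d and Stxbp2, of the fusion machinery, had log2 changes of -0.16 and -0.07 (adjusted p of 0.0968 and 0.599), and Unc13d fell with TPM and with quantile normalization (adjusted p of 0.0299 and 0.0443). The median log2 change of the 12 was 0.082, against 0.012 over all tested genes. Without Lck-cre replicate 6 the count was 3, and without control replicate 3 it was 2.

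Of 8 effector cytokines, chemokines and death ligands, 2 were tested and 1 rose by limma, where 15.4% of all tested genes did. Tnf, or tumour necrosis factor, lay at 0.985, 0.725, 0.735 and 0.715 FPKM in the controls and at 5.29, 1.48, 2.16 and 4.41 FPKM in Lck-cre replicates 5 to 8. Its groups did not overlap, and replicate 6 was the lowest of the Lck-cre samples. The log2 change was 1.45 (SE 0.26, adjusted p = 0.00942 by limma), with a mean ratio of 4.23. Tnf met the minimum through the Lck-cre group alone, and its call ended with no filter (adjusted p = 0.0521). Tnfsf10, or TRAIL, had a log2 change of 0.26 (adjusted p = 0.0903). Ifng, the interferon of cytotoxic cells, was listed at 0 in all 8 samples, and Fasl, the death ligand, reached 0.0573 FPKM at most.

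Most genes for NK receptors and their adaptors were low. Of 34 genes, 29 never reached 1 FPKM, 16 of them listed at 0 in all 8 samples, while Cd96 lay at 48.3 to 89.0 FPKM and Hcst at 12.9 to 24.5 FPKM. By limma 0 of 4 tested rose and 1 fell, or 25% called against 25.8% of all tested genes. The median log2 change was -0.24, against 0.012 over all tested genes. Cd226, or DNAM-1, an activating receptor, fell from 1.54, 1.72, 1.53 and 1.05 FPKM in the controls to 0.334, 0.902, 0.216 and 0.161 FPKM in Lck-cre replicates 5 to 8 (log2 change -1.17, SE 0.24, adjusted p = 0.0128 by limma). Its groups did not overlap, with replicate 6 nearest to the controls. It met the minimum through the controls alone. The call ended without control replicate 1 (adjusted p = 0.0574) or Lck-cre replicate 5 (0.0566), which both leave the estimate to the males, and with no filter (0.0616). Cd96, a receptor for the same ligand family, Tigit, their inhibitory relative, and Hcst, the adaptor DAP10, had log2 changes of -0.30, -0.17 and 0.06 (adjusted p of 0.132, 0.44 and 0.871). Tyrobp, the adaptor DAP12, lay at 0.277, 0.326, 0.106 and 0.381 FPKM in the controls and at 1.39, 0.446, 0.856 and 1.65 FPKM in Lck-cre. Its groups did not overlap, but too few samples reached 1 FPKM for a test.

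Transcription factors and cytokine receptors that act on cytotoxic genes had 11 tested members, of which limma called 3 higher and 1 lower. Together these were 36.4% of the list, against 25.8% of all tested genes (15.4% higher and 10.4% lower). With TPM the counts of the list were 3 and 3, since Stat4 and Stat5b also fell. Il12rb2 and Il12rb1, the chains of the IL-12 receptor, both rose. Il12rb2 lay at 1.95, 1.59, 1.53 and 1.47 FPKM in the controls and at 5.92, 2.57, 3.99 and 5.41 FPKM in Lck-cre (log2 change 1.17, SE 0.18, adjusted p = 0.0075 by limma). Il12rb1 rose from 22.6 ± 4.83 to 31.9 ± 6.26 FPKM with overlapping groups (SD, n = 4 each; log2 change 0.49, adjusted p = 0.0109). Runx3, which directs thymocytes to the CD8 fate, lay at 4.74, 3.88, 5.00 and 4.17 FPKM in the controls and at 9.19, 5.45, 7.61 and 10.1 FPKM in Lck-cre (log2 change 0.77, SE 0.17, adjusted p = 0.0141). Il21r, a chain of the IL-21 receptor, fell from 112 ± 4.27 to 83.3 ± 10.7 FPKM with no overlap (log2 change -0.43, adjusted p = 0.014). The calls of Runx3 and Il21r ended without control replicate 1 or Lck-cre replicate 5, fits that both leave the estimate to the males (adjusted p of 0.0611 to 0.0624). This left a count of 2. Both calls also ended with no filter (0.0659 and 0.0585).

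The T-box factors that drive granzyme and perforin genes in mature killer cells were low in both groups. Tbx21, or T-bet, lay at 0.297, 0.278, 0.316 and 0.448 FPKM in the controls and at 0.386, 0.489, 0.531 and 0.608 FPKM in Lck-cre, with overlap. Eomes reached 0.0456 FPKM at most, and Zbtb16, or PLZF, the factor of NKT cells, 0.00509. Il2rb, through which IL-15 acts on NK and CD8 T cells, reached 0.131 FPKM at most.

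**Figure D3:**
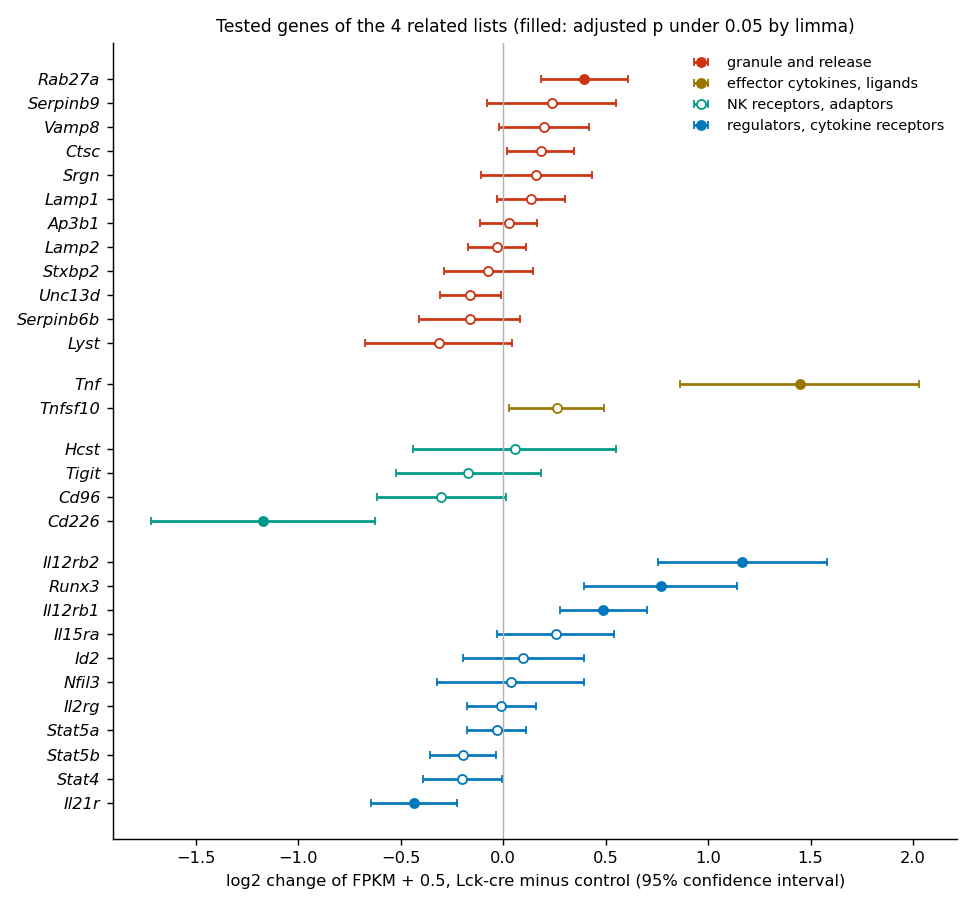
Log2 change of FPKM + 0.5, Lck-cre minus control, with its 95% confidence interval (x axis), for the 29 tested genes of the 4 related lists (y axis). Filled points passed an adjusted p of 0.05 by limma: Rab27a, Tnf, Il12rb2, Runx3 and Il12rb1 above 0, and Cd226 and Il21r below it.

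Markers of cells that carry granzymes were summed to set their levels beside Gzma and Nkg7. The marker lists, too, were chosen with earlier results of these data known, so their p-values are a description and no independent support. In bulk samples, more cells of a type and more RNA per cell cannot be told apart. Of 10 NK cell markers, 3 (Ncr1, Klra8 and Klrc2) were listed at 0 in all 8 samples, and Tyrobp alone reached 1 FPKM. Klrb1c, or NK1.1, reached 0.0199 FPKM at most. The summed NK markers were 0.211 to 0.498 FPKM in the controls and 0.524 to 1.72 FPKM in Lck-cre, and without Tyrobp 0.0813 to 0.148 and 0.0658 to 0.102 FPKM. The part of NK cells in the level of Gzma was not tested.

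The summed gamma delta T cell markers were 30.5 to 32.6 FPKM in the controls and 52.6 to 101 FPKM in Lck-cre, a 2.46-fold ratio. Without Trdc, the largest part of the sum, they were 2.98 to 7.01 and 10.6 to 39.4 FPKM. By limma Trdc, Trgc1, Trgc2 and Trgc4, the tested genes of that list, rose, where 15.4% of all tested genes did, but Trgc4 met the minimum through the Lck-cre group alone. Trdc, the delta constant segment, lay at 25.6, 27.5, 27.7 and 27.9 FPKM in the controls and at 57.5, 42.0, 47.5 and 61.7 FPKM in Lck-cre (log2 change 0.91, SE 0.11, adjusted p = 0.00619 by limma). Trgc1, a gamma constant segment, lay at 2.40, 0.977, 1.64 and 1.01 FPKM in the controls and at 9.70, 3.55, 7.96 and 14.0 FPKM in Lck-cre, in the same order over the replicates as Gzma in both groups. Of the other genes of that list, Sox13 is a transcription factor of these cells. Its groups overlapped, at 0.256 to 0.296 FPKM in the controls and 0.293 to 1.08 FPKM in Lck-cre. The groups of Cd163l1 did not overlap, at 0 to 0.0415 FPKM in the controls and 0.0804 to 1.26 FPKM in Lck-cre. Trdv4, Blk and Maf overlapped and stayed below 1 FPKM, and Il17a was listed at 0 in all 8 samples. The part of gamma delta T cells in the level of Gzma was not tested.

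Among the other lists, the summed myeloid and dendritic markers lay at 8.56 to 9.21 FPKM in the controls and at 10.7 to 16.3 FPKM in Lck-cre. Cd68, the largest part of that sum, lay at 5.11 to 6.32 and 7.15 to 11.4 FPKM. Siglech, which marks plasmacytoid dendritic cells, lay at 0.0219 to 0.077 and 0.163 to 0.955 FPKM. Lyz2 and Csf1r, both below 1 FPKM, also lay higher in all Lck-cre samples, while Itgam, Itgax, Flt3 and Adgre1 overlapped. The 6 NKT markers summed to 3.74 to 5.34 FPKM in the controls and 1.90 to 3.44 FPKM in Lck-cre. The difference lay in Icos, a costimulatory receptor of activated T cells, which fell from 3.87 ± 0.766 to 1.74 ± 0.727 FPKM (SD, n = 4 each; adjusted p = 0.0162 by limma). The other 5 genes of that list never reached 1 FPKM, and of these Tbx21 had a higher mean in Lck-cre. The DP markers summed to 5578 to 5968 FPKM in the controls and 4328 to 5572 FPKM in Lck-cre. That list was mixed. Of its 10 tested genes limma called 3 lower (Cd4, Rag1 and Rag2) and 1 higher (Ptcra, adjusted p = 0.0107), against 10.4% and 15.4% of all tested genes. Mast cell and basophil markers summed to 0 to 0.0266 and 0.117 to 0.597 FPKM. Cpa3 made up nearly all of this sum, at 0 to 0.0266 FPKM in the controls and 0.0937 to 0.597 FPKM in Lck-cre. Mcpt8, Fcer1a and Ms4a2 were listed at 0 in all 8 samples, and Mcpt4 in all but Lck-cre replicate 6 (0.0231 FPKM). In each of these 4 lists and in the NK and gamma delta lists the groups did not overlap (permutation test over samples, exact and two-sided, p = 0.0286, the smallest that 4 against 4 samples allow; adjusted over the 11 lists 0.0524). The other 5 lists, of mature T cells, agonist-selected and double negative thymocytes, B cells and epithelium, had exact permutation p of 0.0571 to 0.8. Abundant genes dominate such sums. By limma, Klf2 rose among 3 tested mature T cell genes and Dtx1 among 4 double negative genes (adjusted p of 0.03 and 0.00985), against 15.4% of all tested genes. In the epithelium list Epcam, most of the sum, overlapped, as did Foxn1, Psmb11 and Krt5, while Krt8, below 1 FPKM, lay higher in all Lck-cre samples. The part of these cells in the levels of the 7 genes was not tested.

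**Figure D4:**
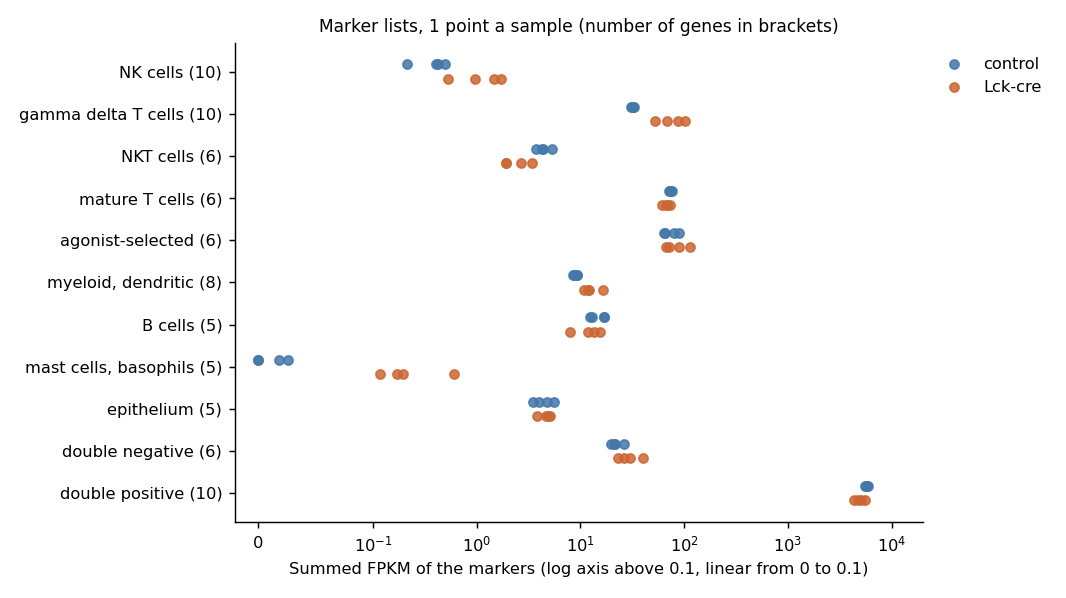
Summed FPKM of each marker list (x axis, log scale above 0.1 and linear below) in each of the 8 samples, with 1 point a sample and the number of genes in brackets. The gamma delta T cell markers lay higher in all Lck-cre samples (52.6 to 101 FPKM) than in the controls (30.5 to 32.6), while the NK markers reached 1.72 FPKM at most.

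Genes whose profile over the 8 samples was most like the mean of the 5 members above 0 FPKM in any sample, each scaled to unit variance, were ranked by Pearson's r on log2(FPKM + 0.5), among the tested genes other than the members. This is a description with no p, over samples that fall into the 2 genotypes and share their library. Klrd1, above 0 only in Lck-cre replicate 5 (0.0553 FPKM), weighed as much in the mean as Gzma, so the ranking leans on that 1 low value. The nearest were Osm (oncostatin M), Sytl1 (a partner of Rab27 in vesicle release), Slc25a12 (a mitochondrial carrier), Il12rb1 and Polr3c (a subunit of RNA polymerase III), with r of 0.982, 0.979, 0.978, 0.977 and 0.977. After the group means were subtracted they were Rps6ka1 (a ribosomal S6 kinase), Prr13, Osm, Tamalin and Mndal, with r of 0.985, 0.976, 0.975, 0.973 and 0.972. By limma, Prr13 rose 1.90-fold, Tamalin 1.84-fold and Polr3c 1.17-fold (adjusted p of 0.0075, 0.00816 and 0.03), the last not with TPM (0.0777), nor when control replicate 1, 2 or 4 or Lck-cre replicate 5, 7 or 8 was left out (0.0679 to 0.0884). Osm, Sytl1, Slc25a12, Rps6ka1 and Mndal did not pass (adjusted p of 0.129, 0.0508, 0.0643, 0.123 and 0.881). The members themselves differed, with r of 0.897 between Gzma and Nkg7, 0.561 between Gzma and Ctsw and -0.771 between Gzma and Prf1.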

How the data were processed

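RNA from sorted thymocytes of 4 control and 4 Lck-cre samples was sequenced. Per the submitters' processing notes, HISAT and Bowtie2 were used, with no version or role named; the quantifier and the genome build are not given in these sources. The deposited tables give FPKM, computed by the authors per the file headers, TPM, also by the authors, and the mean read coverage per base (a signal not scaled by depth). Entries that share a gene ID were summed. The test took genes that reached 1 FPKM in 4 or more samples and used limma 3.58.1 (R 4.3.3) on values of log2(FPKM + 0.5) (terms for sex and genotype, empirical Bayes with trend, two-sided, Benjamini-Hochberg adjustment over all tested genes, threshold 0.05). The fit was also run on simulated data with independent noise for each gene. That simulation had no sex effect and no shifts shared by the genes of a library, so it does not cover them. A fold change on this scale understates the change of low genes. Summed markers were compared by exact permutation tests over 70 assignments (SciPy 1.17.1). Summaries used Python 3.11.15, pandas 2.3.3 and NumPy 2.4.6.

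The members, and the related and marker lists, were chosen with earlier results of these data known. Of 171 list entries, 169 matched by symbol and 1 by gene ID (Cd163l1), and Vamp7 was not matched. Named genes were the members, up to 3 called genes in each direction of each related list with the smallest adjusted p, 10 genes given whatever their result, and the 5 nearest to the members' mean over the samples, before and after subtracting group means. Other genes named were chosen after their values were seen. Positions are as the files list them. Promoters are RefSeq's (GRCm38.p6). Alternatives were quantile normalization, TPM, other pseudocounts (0.1 and 1), all genes kept, only genes with a mean of 1 FPKM or more, a fit without sex, a fit of the males, the removal of each sample in turn and an adjusted p under 0.01. Because of the sex term, removing control replicate 1 or Lck-cre replicate 5 gave the same genotype estimates as the fit of the males. Those fits are therefore not separate alternatives.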

Additional observations from a re-analysis of the deposited data

Results flagged for a closer look

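With 4 samples a group, a sample was singled out where its gap to the nearest other exceeded Dixon's 95% critical share of the group's range, which chance gives in about 1 of 20 groups. Of 53 combinations of a named gene and a group, 3 met this. Tnf in control replicate 1 lay at 0.985 FPKM, and the other controls at 0.715 to 0.735. Klrd1 in Lck-cre replicate 5 lay at 0.0553 FPKM and Klrb1c in control replicate 4 at 0.0199 FPKM, each with the other 3 samples of the group listed at 0.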

How the results depend on the processing

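No paired analysis was possible because the groups share no replicate numbers. Gzma, Nkg7, Prf1 and Ctsw kept the direction of their log2 difference under every alternative run; with 1 sample left out it was 1.39 to 1.84 for Gzma, 0.74 to 1.13 for Nkg7, -0.81 to -0.44 for Prf1 and 0.03 to 0.24 for Ctsw. Nkg7 stood at 1.42 with TPM and 2.02 with a pseudocount of 0.1, and Klrd1 at 0.16 with the latter. The count of called genes, 3180, was 1056 with no filter, 652 with males only, 512 at an adjusted p under 0.01 and 647 to 3889 with 1 sample left out. Called granule genes, 1 of 12 tested, were 2 with quantile normalization or TPM, 0 with no filter, with males only or at an adjusted p under 0.01, and 0 to 3 with 1 sample left out. The 1 called effector gene became 0 with no filter. The 1 called NK receptor gene became 0 with no filter, with a mean FPKM of at least 1, with males only or at an adjusted p under 0.01, and 0 to 1 with 1 sample left out. The 4 called regulators became 2 with no filter or males only, 1 at an adjusted p under 0.01, and 2 to 5 with 1 sample left out. Fewer samples were fitted with males only and more low genes with no filter. Without control replicate 1 or Lck-cre replicate 5, the sex term took up the other female. The genotype estimate then came from the males alone, with 653 and 647 genes called. The cause of other shifts was not tested. The ratio of the summed mast cell and basophil markers, between low levels, was 14.5 to 44.9 with 1 sample left out, the highest without control replicate 4. Mndal, not called in any setting, changed sign with quantile normalization (-0.0195), TPM (-0.0582) and without control replicate 4 (-0.0161) or Lck-cre replicate 7 (-0.011), in a range of -0.0161 to 0.0519 with 1 sample left out. Depth is unknown, so whether genes listed at 0 are absent cannot be told.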

Other observations

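The genomic neighbours of the 7 genes were examined within 100 kilobases, a window chosen after the data were seen. Of the 12 genes around Gzma, none met the minimum of 1 FPKM in at least 4 samples and 8 were listed at 0 in all 8 samples, so Gzma was the 1 gene of its stretch that met it. Around Gzmb, likewise, 0 of 11 genes met the minimum. Adamts14, a secreted protease 24395 bases from Prf1 and the 1 tested gene near it, also fell, from 1.77 ± 0.139 to 0.893 ± 0.299 FPKM (SD, n = 4 each; log2 change -0.73, adjusted p = 0.0161 by limma), a call lost in 5 of the alternative settings. Etfb, an electron transfer flavoprotein subunit 5834 bases from Nkg7 and the 1 tested gene near it, rose from 18.4 ± 1.72 to 24.9 ± 1.86 FPKM (log2 change 0.43, adjusted p = 0.00988 by limma). Gabarapl1, 49436 bases from Klrd1 and the 1 tested gene near it, was not called (log2 change -0.54, adjusted p = 0.065 by limma). Of all tested genes, 15.4% rose and 10.4% fell. Around Ctsw, 3 of 16 tested genes rose and 2 fell, against 25.8% of all tested genes, and each of these 5 calls was lost in 5 to 11 of the alternative settings.

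Since the mean over the members joins genes that differ in direction, the genes most like Gzma alone were also ranked, a step added after the data were seen. Over the 8 samples they were Trgc1, Bst2 (tetherin, which is induced by interferon), Trgc2, Trgj2 and Limk1, with Pearson's r of 0.997, 0.994, 0.993, 0.992 and 0.992 on log2(FPKM + 0.5). After the group means were subtracted they were Rab27a, Tgtp2, Ifitm3, Dhx58 and Trgc1, with r of 0.995, 0.991, 0.987, 0.986 and 0.985. These are descriptions over 8 samples that share their libraries, with no p.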
